A study of Mus musculus with 6 samples.

Results

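The 9 genes described here are widely used to recognise microglia, the resident macrophages of the brain. They are P2ry12, Tmem119, Cx3cr1, Csf1r, Aif1, Trem2, Tyrobp, Siglech and Sall1. All 9 were taken by symbol from a table of 50559 genes, and all 9 had enough counts to be among the 20257 genes tested. The table holds RNA-seq counts for 6 mouse hypothalamus libraries, 3 labelled SRC1 KO, from mice with the SRC-1 gene deleted, and 3 labelled WT, from wild-type mice. SRC-1, steroid receptor coactivator 1, is a nuclear receptor coactivator encoded by Ncoa1. The sources used here do not give the age, sex and strain of the mice, which exons were deleted, or whether each library is 1 animal. The p-values therefore measure the spread between these libraries, which may be technical.

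Microglia enter the brain from the embryonic yolk sac and renew themselves there. They live on signals through the receptor of colony stimulating factor 1, survey the tissue with moving processes, and hold a resting programme that depends on transforming growth factor beta and on the transcription factor Sall1. P2ry12, Tmem119, Siglech and Sall1 mark that resting programme, whereas Csf1r, Cx3cr1, Aif1, Trem2 and Tyrobp are also made by other macrophages. In the hypothalamus, microglia have been studied for their part in feeding, diet-induced inflammation and stress. In whole tissue, fewer cells of a type and less RNA per cell cannot be told apart.

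None of the 9 genes passed the threshold in edgeR's quasi-likelihood test, an adjusted p under 0.05 over all genes tested, which 0.834% of the 20257 genes did. At an unadjusted p under 0.05, P2ry12 and Cx3cr1 were higher in SRC1 KO, 2 of the 9, against 5.75% of all genes tested, and 0 of the 9 were lower, against 7.21%. They were also the 2 genes whose SRC1 KO libraries all lay above all WT libraries, as 8.58% of all genes tested did, and no member had all SRC1 KO libraries below WT, against 9.03%. The log2 fold change was above 0 for 8 of the 9, against 51.1% of all genes tested, and its median was 0.12, beside 0.0042 over all genes tested. DESeq2 called 1 of the 9, P2ry12, limma-voom called 0, both plain and weighted by library quality, and edgeR called 0 of the 9 with any 1 library left out. Over all genes with an adjusted p, DESeq2 called 4.25%, limma-voom 0.508% and its weighted form 1.98%. The median was 0.06 without SRC1 KO replicate 3 and 0.18 without SRC1 KO replicate 2. The summed level of the 9 genes was 225.8, 200.9 and 224.9 CPM (read counts scaled to a common library size) in SRC1 KO, against 207.1, 182.4 and 195.2 CPM in WT. These sums overlapped between the groups, since SRC1 KO replicate 2 lay below WT replicate 1.

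As a check of the labels, Ncoa1 had 1692, 1478 and 1766 counts in SRC1 KO, against 5180, 4630 and 5406 counts in WT. Library totals ran from 39341074 to 46755553 counts in SRC1 KO and from 36613507 to 42191925 counts in WT. Of all genes tested, 49 were called higher and 120 lower in SRC1 KO. Mitochondrial genes took 4.77% to 5.08% of counts in SRC1 KO, against 4.23% to 4.51% in WT, and their part in the results below was not tested. WT replicate 2 stood apart in macrophages of the brain's borders, with 183 counts of their mannose receptor Mrc1, against 36 to 74 counts in the other 5 libraries.

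Among the 9 genes and their partners, the highest log2 fold changes belonged to the ADP receptors P2ry12 and P2ry13, followed by Cx3cr1. The stretches that follow reach from 250 bases before to 50 bases after the annotated start of each of these genes. They come from RefSeq on build GRCm38.p6, which differs from the build of the counts, GRCm39. They are shown because each of these genes was higher in all SRC1 KO libraries than in any WT library, and so that the letters of a pair of motifs can be seen in place. Capitals mark GAGGAA, a core bound by the myeloid factor PU.1 and other ETS factors, and AGGTCA, a half-site bound by many nuclear receptors, each on either strand.
P2ry12, minus strand, chr3:59262936-59263235: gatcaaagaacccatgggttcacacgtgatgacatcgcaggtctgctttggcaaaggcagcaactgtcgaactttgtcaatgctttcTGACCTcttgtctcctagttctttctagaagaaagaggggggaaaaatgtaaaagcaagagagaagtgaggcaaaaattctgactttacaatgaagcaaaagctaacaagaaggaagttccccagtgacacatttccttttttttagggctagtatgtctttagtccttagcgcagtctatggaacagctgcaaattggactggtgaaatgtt
P2ry13, minus strand, chr3:59210833-59211132: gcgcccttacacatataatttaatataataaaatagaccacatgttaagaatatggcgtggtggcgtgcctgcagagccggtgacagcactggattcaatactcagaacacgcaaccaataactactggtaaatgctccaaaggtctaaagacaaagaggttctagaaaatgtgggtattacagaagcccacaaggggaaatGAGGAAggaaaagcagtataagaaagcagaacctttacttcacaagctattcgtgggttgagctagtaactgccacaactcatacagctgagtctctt
Cx3cr1, minus strand, chr9:120068247-120068546: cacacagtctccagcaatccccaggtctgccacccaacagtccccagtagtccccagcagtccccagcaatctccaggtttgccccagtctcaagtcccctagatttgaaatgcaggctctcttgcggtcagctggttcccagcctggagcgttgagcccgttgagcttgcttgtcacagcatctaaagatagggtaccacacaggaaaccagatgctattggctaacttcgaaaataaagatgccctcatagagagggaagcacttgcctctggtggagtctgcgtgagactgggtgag

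The P2ry12 stretch held 1 AGGTCA on the opposite strand and no GAGGAA, the P2ry13 stretch held 1 GAGGAA, and the Cx3cr1 stretch held neither. Of 32851 RefSeq promoters of the same 300 bases, 28.3% held GAGGAA and 16.3% held AGGTCA. The longer form GAGGAAGT, which contains GAGGAA, was in 3.2% of them and in no promoter of the 9 genes. Of the 9 genes, 6 had an entry, and Sall1 had 3. Aif1, Trem2 and Siglech each held GAGGAA, and Aif1 and Trem2 also held AGGTCA, while the Sall1 entries held neither. Tmem119, Csf1r and Tyrobp had no entry. A match of letters is not a bound site.

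P2ry12 is a receptor for ADP through which microglia sense nucleotides released by damaged cells and send processes towards them. It lies on chromosome 3 (59123692 to 59170408, minus strand, GRCm39), inside the span of Med12l on the other strand, and none of its exon bases is shared with another gene of the table. No strand option was set in counting, so any reads of unspliced Med12l RNA over these exons are not separated. Their share was not tested. P2ry12 had 937, 897 and 1363 counts in SRC1 KO, against 767, 626 and 769 in WT. Scaled to library size, these were 22.3, 22.6 and 29.9 CPM in SRC1 KO, against 18.8, 16.5 and 18.5 CPM in WT. Every SRC1 KO library was above every WT library, and SRC1 KO replicate 3 was well above the other two. The mean was 24.9 ± 4.28 CPM in SRC1 KO and 17.9 ± 1.23 CPM in WT (SD, n = 3 each), a ratio of 1.39 with a 95% interval of 1.16 to 1.67. The log2 fold change was 0.47 ± 0.12 (SE) and the adjusted p in edgeR 0.102, with 0.0127 in DESeq2 and 0.00033 in edgeR with no expression filter. These last settings were also the most lenient over all genes, with 810 genes called by DESeq2 and 966 with no filter, against 169 in the main edgeR fit. On simulated counts DESeq2 had the highest share of false calls. Without SRC1 KO replicate 3 the log2 fold change of P2ry12 was 0.32 and its adjusted p in edgeR 0.116.

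P2ry13, a neighbour on the same strand (59115313 to 59118303) and also an ADP receptor of microglia, was also higher in every SRC1 KO library than in any WT library. It had 11, 9.35 and 11.3 CPM in SRC1 KO, against 8.46, 6.63 and 6.69 CPM in WT, and SRC1 KO replicate 2 was the lowest of its group. Its log2 fold change was 0.54 ± 0.13 (SE), and edgeR gave an adjusted p of 0.0908 and DESeq2 one of 0.0171. Of the other genes in the span of Med12l, named after their values were seen, Gpr171 had 1 to 3 counts in SRC1 KO and 1 to 7 in WT, too few to be tested. P2ry14, a receptor for UDP-glucose, had a log2 fold change of -0.035 ± 0.18, and Med12l, which encloses both receptors, one of -0.049 ± 0.082, with adjusted p of 0.963 and 0.877 in edgeR.

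Cx3cr1 is the receptor for fractalkine, a chemokine that neurons carry on their surface. The gene lies on chromosome 9 (119877749 to 119897362, minus strand, GRCm39), and 2.45% of its exon bases are shared with Gm33858. Its level was 44.9, 40.5 and 41.8 CPM in SRC1 KO, against 38.2, 34.1 and 35.4 CPM in WT. All SRC1 KO libraries were above all WT libraries, the nearest pair being 40.5 CPM in SRC1 KO replicate 2 and 38.2 CPM in WT replicate 1. The mean of 42.4 ± 2.28 CPM in SRC1 KO was 1.18 times the 35.9 ± 2.12 CPM in WT (SD, n = 3 each), with a 95% interval of 1.05 to 1.32. The log2 fold change of 0.24 ± 0.073 (SE) did not pass, with an adjusted p of 0.177 in edgeR and 0.12 in DESeq2. Its ligand Cx3cl1 had 134.0, 128.5 and 136.7 CPM in SRC1 KO, against 141.1, 126.4 and 144.4 CPM in WT, with overlapping groups and a log2 fold change of -0.045 ± 0.071.

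**Figure D1:**
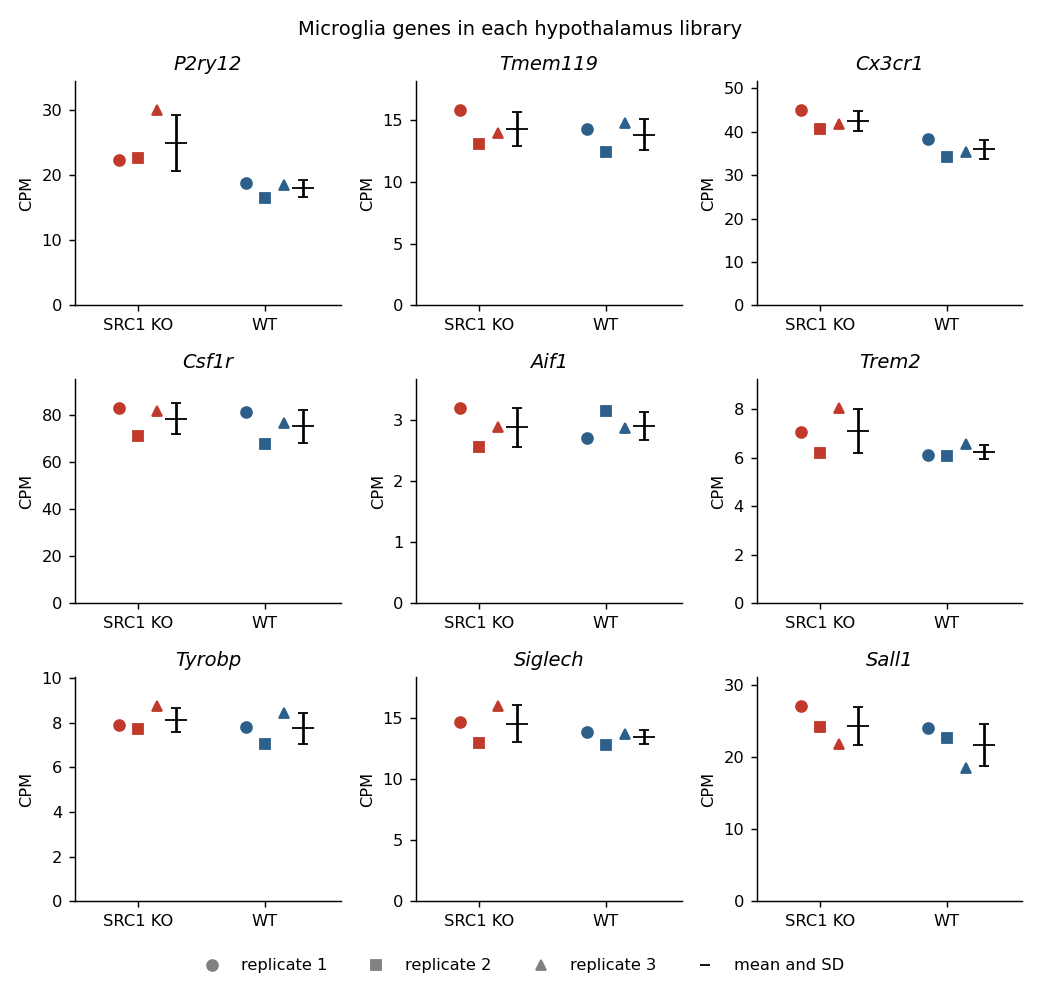
Level of each of the 9 microglia genes in CPM (y axis from 0), with SRC1 KO libraries in red and WT libraries in blue, one symbol per replicate and the mean with its SD (n = 3) in black. P2ry12 and Cx3cr1 are the panels in which the groups do not overlap, and SRC1 KO replicate 3 is the highest P2ry12 value at 29.9 CPM.

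Csf1r is the tyrosine kinase receptor that microglia need to survive. It lies on chromosome 18 (61238644 to 61264211, plus strand, GRCm39). Its level was 82.9, 71.1 and 81.6 CPM in SRC1 KO, against 81.3, 67.8 and 76.5 CPM in WT. The groups overlapped, and replicate 2 was the lowest library of each group. The ratio was 1.04, with a 95% interval of 0.915 to 1.19 and an adjusted p of 0.845 in edgeR. Neither ligand passed. Csf1 had 31.5, 32.7 and 34 CPM in SRC1 KO, against 37.3, 34.9 and 36.1 CPM in WT. All 3 SRC1 KO libraries lay below WT (log2 fold change -0.14 ± 0.067, adjusted p 0.412 in edgeR). Il34, the ligand made mainly by neurons, had 28.7, 31.1 and 28.8 CPM in SRC1 KO, against 31.7, 27.9 and 30.8 CPM in WT, with overlapping groups and a log2 fold change of -0.030 ± 0.075.

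Trem2 and Siglech are separate receptors that share an adaptor. Trem2 binds lipids and lipoproteins, Siglech is a lectin of the sialic acid-binding family, and both pass their signal through the adaptor Tyrobp, also called DAP12. Trem2 (chromosome 17, 48653429 to 48659304, plus strand, GRCm39) had 7.08, 6.20 and 8.04 CPM in SRC1 KO, against 6.10, 6.07 and 6.57 CPM in WT. SRC1 KO replicate 2 lay within the WT range, so the groups overlapped. The ratio was 1.14, with a 95% interval of 0.931 to 1.39 and an adjusted p of 0.634 in edgeR. Siglech (chromosome 7, 55417916 to 55429196, plus strand) had 14.7, 13 and 16 CPM in SRC1 KO, against 13.9, 12.8 and 13.7 CPM in WT. Here too SRC1 KO replicate 2 was inside the WT range, and the ratio was 1.08 (95% interval 0.932 to 1.26, adjusted p 0.718 in edgeR). Tyrobp (chromosome 7, 30113207 to 30117007, plus strand) had 7.91, 7.74 and 8.74 CPM in SRC1 KO, against 7.80, 7.05 and 8.42 CPM in WT. The groups overlapped, with a log2 fold change of 0.068 (95% interval -0.19 to 0.33, adjusted p 0.882 in edgeR).

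The genes that work with these receptors and their adaptor did not pass either. Apoe, a lipoprotein that Trem2 binds and that astrocytes make in quantity, had 1171, 1102 and 1268 CPM in SRC1 KO, against 1514, 1414 and 1464 CPM in WT. All SRC1 KO libraries were below all WT libraries, with a log2 fold change of -0.31 ± 0.081 (SE). Its adjusted p was 0.114 in edgeR, 0.00134 in DESeq2 and 0.0454 in limma-voom weighted by library quality. Syk, the kinase that Tyrobp recruits, had a log2 fold change of 0.049 ± 0.16, and Plcg2, a phospholipase further down, one of -0.11 ± 0.12. Hcst, a related adaptor that lies next to Tyrobp on the other strand, had 5 or 6 counts per library in SRC1 KO and 2 to 8 in WT, too few to be tested.

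Tmem119, a membrane protein used to tell microglia from macrophages that enter from the blood, had 15.8, 13.1 and 14 CPM in SRC1 KO, against 14.3, 12.4 and 14.8 CPM in WT. The groups overlapped, and the ratio was 1.03 (95% interval 0.88 to 1.21, adjusted p 0.916 in edgeR). Aif1, which encodes the actin-bundling protein known as Iba1, was the lowest of the 9 genes, with 134, 101 and 132 counts in SRC1 KO, against 110, 119 and 119 in WT. Its level was 2.88 ± 0.324 CPM in SRC1 KO and 2.90 ± 0.225 CPM in WT (SD, n = 3 each). The log2 fold change of -0.011 ± 0.17 was the sole one of the 9 below 0, and its 95% interval of -0.38 to 0.36 was the widest of the 9. Tmem119 lies on chromosome 5 (113931790 to 113938530, minus strand) and Aif1 on chromosome 17 (35389962 to 35395050, minus strand), both on GRCm39.

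Sall1, the transcription factor that holds microglia in their resting identity, had 27.0, 24.1 and 21.8 CPM in SRC1 KO, against 24.0, 22.6 and 18.4 CPM in WT. The groups overlapped, and replicate 3 was the lowest library of each. The ratio was 1.12 (95% interval 0.945 to 1.34, adjusted p 0.611 in edgeR). Sall1 lies on chromosome 8 (89753867 to 89770790, minus strand, GRCm39), and 1.52% of its exon bases are shared with Gm3134. Transforming growth factor beta, which sustains the resting programme, and its receptors did not pass. Tgfb1 had a log2 fold change of -0.0023 ± 0.16, Tgfbr1 one of -0.013 ± 0.083 and Tgfbr2 one of -0.19 ± 0.14. The nucleotidase Entpd1, which shapes the supply of ADP, had 0.022 ± 0.094, and Gnai2, an inhibitory G protein subunit through which P2ry12 signals, -0.13 ± 0.065, with every SRC1 KO library of Gnai2 below WT. Of these 13 genes, the ligands, receptors and signal carriers that work with the 9, 12 were tested and edgeR called 0. At an unadjusted p under 0.05, P2ry13 was higher and Apoe lower, 1 of the 12 each way, beside 5.75% and 7.21% of all genes tested. DESeq2 called both, beside 4.25% of all genes with an adjusted p. Of the 12, 1 (P2ry13) had all SRC1 KO libraries above WT, beside 8.58% of all genes tested. For 3 (Apoe, Csf1 and Gnai2) all SRC1 KO libraries lay below WT, beside 9.03%.

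**Figure D2:**
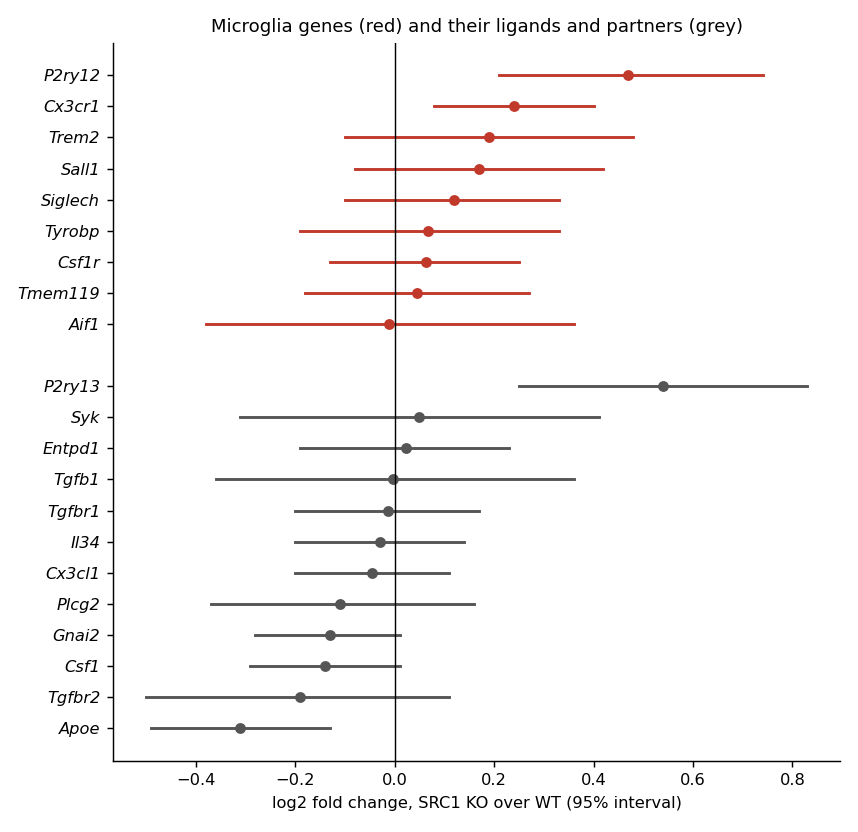
Log2 fold change of SRC1 KO over WT (x axis) with its 95% interval from edgeR, for the 9 microglia genes in red and 12 tested ligands and partners in grey, each block ordered by value. The intervals of P2ry12, Cx3cr1 and P2ry13 lie above 0 and that of Apoe below 0, before any adjustment for the number of genes tested.

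Levels were compared between genes per kilobase of exon (RPKM, from the scaled counts and the exon length in the table). Csf1r was the highest of the 9, with 20.3 ± 1.67 RPKM in SRC1 KO and 19.4 ± 1.77 RPKM in WT. Tyrobp followed with 14.1 ± 0.936 RPKM in SRC1 KO and 13.5 ± 1.19 RPKM in WT, then Cx3cr1 with 11.3 ± 0.608 RPKM in SRC1 KO and 9.57 ± 0.564 RPKM in WT (SD, n = 3 each). The other means ran in SRC1 KO from P2ry12 at 9.30 RPKM through Tmem119 (6.30), Trem2 (6.20), Sall1 (4.19) and Siglech (3.80) to Aif1 at 2.80 RPKM, and in WT from P2ry12 at 6.69 RPKM through Tmem119 (6.11), Trem2 (5.45), Sall1 (3.73) and Siglech (3.51) to Aif1 at 2.82 RPKM. The order of the 9 means was therefore the same in both groups. Neighbours whose replicates overlapped in both groups were Tmem119 with Trem2 and Sall1 with Siglech. P2ry12 overlapped Cx3cr1 in SRC1 KO, but Tmem119 in WT.

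Set against the mean log2 RPKM of the 9 genes in its own library, P2ry12 stood at 0.16, 0.35 and 0.57 in SRC1 KO, against 0.07, -0.01 and 0.07 in WT. It was the sole one of the 9 genes whose relative levels did not overlap between the groups, with a difference in means of 0.32 on the log2 scale. P2ry12 is itself part of that mean and was already apart in CPM, so this is not separate evidence. The share of all genes apart on such a relative scale was not computed. In CPM, 8.58% of all genes tested lay wholly above WT and 9.03% wholly below. For the other 8 that difference ran from -0.16 for Aif1 to 0.09 for Cx3cr1. Siglech kept the steadiest place, within 0.12 over the 6 libraries, followed by Cx3cr1 and Csf1r within 0.18 each. The geometric mean of the 9 levels was 7.44, 6.62 and 7.51 RPKM in SRC1 KO, against 6.69, 6.21 and 6.55 RPKM in WT, which overlapped.

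**Figure D3:**
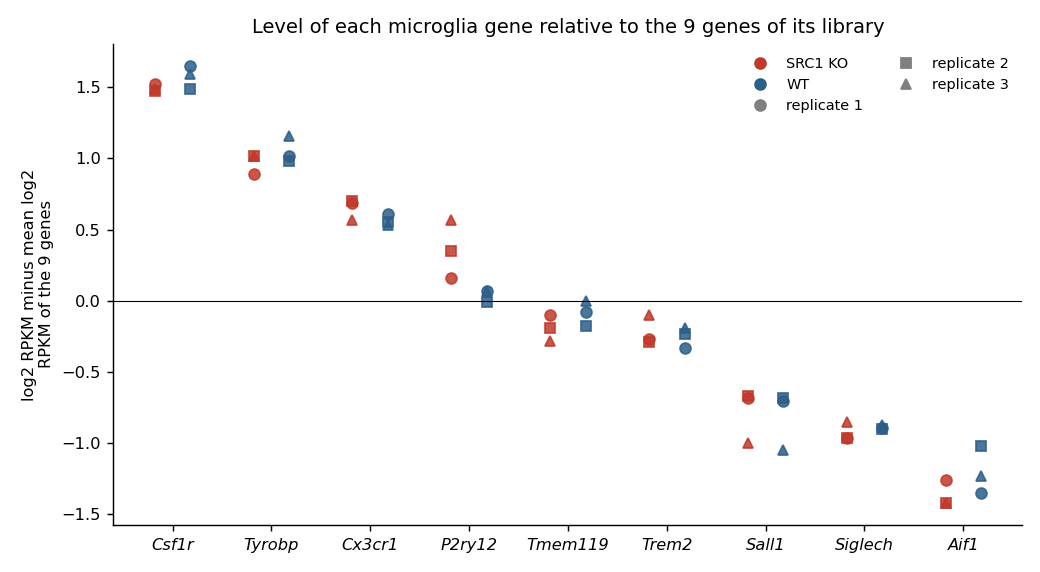
Level of each microglia gene relative to the set, as log2 RPKM minus the mean log2 RPKM of the 9 genes in the same library (y axis), with SRC1 KO libraries in red to the left of WT libraries in blue and one symbol per replicate. The red and blue points are apart for P2ry12, at 0.16 to 0.57 against -0.01 to 0.07, and overlap for the other 8 genes.

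As profiles over the 6 libraries, each standardised to a mean of 0 and an SD of 1, Siglech lay nearest to the mean of the other 8 genes, at a root-mean-square distance of 0.439, and Aif1 farthest, at 1.35, close to Sall1 at 1.3. The mean profile of the 9 was highest in SRC1 KO replicates 1 and 3 (1.33 and 1.31) and lowest in WT replicate 2 (-1.38), with SRC1 KO replicate 2 at -0.66, below WT replicates 1 (-0.21) and 3 (-0.38). Among 15799 other genes with at least 1 CPM on average, those nearest to that profile were Gpr37l1 (0.0932), a receptor of glia, then A930004D18Rik (0.125), Fam163b (0.145), Thsd7a (0.177), St3gal3 (0.186) and Sod2 (0.195), the superoxide dismutase of mitochondria. None of these 6 is on the lists of microglia genes used here. The 28 other microglia genes had a median distance of 1.14, beside 1.36 for all genes compared. With 6 libraries many genes come close by their number alone, and the 100th nearest lay at 0.418.

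Other genes abundant in resting microglia lay on both sides of 0. Of 28 tested, 15 log2 fold changes were above 0 and 13 below, with a median of 0.054 that ran from -0.04 without WT replicate 2 to 0.09 without SRC1 KO replicate 2, and edgeR called 0. The lowest p belonged to Olfml3, a secreted glycoprotein, at 9.59 ± 0.277 CPM in SRC1 KO and 13.3 ± 1.44 CPM in WT (log2 fold change -0.47 ± 0.10, adjusted p 0.0676 in edgeR). Next was the ribonuclease Rnase4 (-0.45 ± 0.11, adjusted p 0.0807). At an unadjusted p under 0.05 there were 3 higher and 3 lower, where 5.75% and 7.21% of all genes tested were. Besides these 2 genes, and chosen after their values were seen, they were Itgb5 (-0.17 ± 0.069) on the lower side, and Bin1 (0.23 ± 0.066), the receptor gene Gpr34 (0.37 ± 0.12) and Fcrls (0.30 ± 0.10) on the higher side. Bin1 stood at 238.9 CPM in SRC1 KO and 204.3 CPM in WT, far above Csf1r at 78.6 and 75.2 CPM. How much of Bin1 came from microglia was not tested. By DESeq2 3 of the 28 were called, beside 4.25% of all genes, by limma-voom 0, and by its weighted form 1. The complement genes C1qa (-0.083 ± 0.10), C1qb (-0.13 ± 0.082) and C1qc (-0.046 ± 0.072), also picked out after the fit, had intervals that span 0.

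Transcription factors of microglia and their lineage showed a median of 0.0055 over 14 genes, 7 above 0 and 7 below, which ran from -0.08 to 0.05 with 1 library left out. Mef2a, which neurons make too, had 0.18 ± 0.066 (adjusted p 0.276) and Runx1 -0.67 ± 0.35 (adjusted p 0.478) in edgeR. Spi1, which encodes PU.1, had 1.94 ± 0.147 CPM in SRC1 KO and 1.71 ± 0.167 CPM in WT (SD, n = 3 each). edgeR, DESeq2 and limma-voom called 0 of the 14. At an unadjusted p under 0.05, 1 was higher and 0 were lower, beside 5.75% and 7.21% of all genes tested.

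Genes of the disease-associated state of microglia had a median of -0.10 over the 21 tested of 25, with 8 above 0 and 13 below. Fth1, the ferritin heavy chain that many cells make, had 1078 ± 52.0 CPM in SRC1 KO and 878.7 ± 60.9 CPM in WT (log2 fold change 0.30 ± 0.081, adjusted p 0.135 in edgeR). Lgals3, galectin 3, was low, at 0.526 ± 0.293 CPM in SRC1 KO and 1.32 ± 0.320 CPM in WT (-1.33 ± 0.41, adjusted p 0.195). Cst7, Clec7a, Ccl3 and Ccl4, which mark this state, had too few counts to be tested. edgeR called 0, with 2 higher and 4 lower at an unadjusted p under 0.05, beside 5.75% and 7.21% of all genes tested. The count called was 1 in DESeq2, 0 in limma-voom and 1 in its weighted form, beside 4.25%, 0.508% and 1.98% of all genes with an adjusted p.

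Among inflammatory genes, Il1b, Tnf, Il6 and Ccl2 had too few counts to be tested. The 12 tested had a median of -0.28, which was -0.06 without WT replicate 2, with 4 above 0 and 8 below. Socs3, a brake on cytokine signals, had -0.92 ± 0.29 (adjusted p 0.198 in edgeR) and passed without SRC1 KO replicate 2 (-1.29, adjusted p 0.0357), and Il18 had 0.26 ± 0.088 (0.223). edgeR, DESeq2 and limma-voom each called 0 of the 12, and 2 were higher and 2 lower at an unadjusted p under 0.05, against the same shares of all genes tested. Cell cycle genes had a median of -0.061 over the 7 tested of 9, which ran from -0.10 to 0.05 with 1 library left out, led by Top2a (-0.29 ± 0.30) and Birc5 (0.15 ± 0.19), with 0 called by edgeR, DESeq2 or limma-voom and 0 at an unadjusted p under 0.05.

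Macrophages of the brain's borders share part of the microglial set, so their markers stand beside it. Their 12 markers summed to 11 to 13.9 CPM in SRC1 KO and 10.8 to 23.5 CPM in WT, where WT replicate 2 gave the highest value, and 8 were tested. Cbr2 had a log2 fold change of -1.02 ± 0.36 and Ms4a7 one of -1.26 ± 0.49, with adjusted p of 0.246 and 0.301 in edgeR. The median was -0.68, and -0.08 without WT replicate 2, -1.01 without WT replicate 1 and -1.24 without WT replicate 3. None was called by edgeR, DESeq2 or limma-voom, and 2 were lower at an unadjusted p under 0.05, beside 7.21% of all genes tested. Without WT replicate 2 the 9 microglia genes had a median of 0.08, with P2ry12 at 0.42 and Cx3cr1 at 0.20.

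White blood cell markers were mostly too low to be tested. Of 8 neutrophil markers Mmp9 alone was tested (0.33 ± 0.16), and the calprotectin genes S100a8 and S100a9 had 2 to 7 counts per library. Of 10 lymphocyte markers Cd79a alone was tested (-0.45 ± 0.47), and its value ran from -0.84 without WT replicate 3 to -0.08 without WT replicate 2. Monocyte markers summed to 82.0 to 89.4 CPM in SRC1 KO and 102.9 to 163.8 CPM in WT, most of it Fn1 (-1.06 ± 0.40, adjusted p 0.387 in edgeR) and Vcan (-0.35 ± 0.12, 0.258), which other cells make too, while Ccr2 had 7 to 11 counts in SRC1 KO and 3 to 43 in WT. Without WT replicate 3 edgeR called 2 monocyte markers, Fn1 (-1.38) and Ccr2. Of 7 red blood cell genes 6 were tested, among them the haemoglobin gene Hba-a2 (0.59 ± 0.44), some of whose reads may also fit its near-identical copy. Its value ran from 0.16 without SRC1 KO replicate 2 to 0.92 without WT replicate 2, and the median of the 6, 0.39, ran from 0.05 to 0.80 without the same libraries. Over these 4 lists, edgeR, DESeq2 and limma-voom called 0 genes. At an unadjusted p under 0.05, 1 gene, Vcan, was lower, beside 7.21% of all genes tested. The part of these cells in the microglial values was not tested.

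Among the other cells of the tissue, all 10 oligodendrocyte markers had a log2 fold change above 0. Their summed level was 6653 to 8900 CPM in SRC1 KO, against 4093 to 5233 CPM in WT. Of the 10, edgeR called 6 higher, beside 0.834% of all genes tested called in either direction. Among these 6 were Opalin, Cldn11, Aspa, Cnp and Mbp, higher by 0.53 to 1.00 on the log2 scale. The count called was 10 with DESeq2, 1 with limma-voom and 9 with its weighted form, 2 with the replicate block, 1 with library totals alone or with the stricter expression filter, and 0 without both first replicates. With 1 library left out the count ran from 1, without WT replicate 1 or SRC1 KO replicate 1, to 8, without SRC1 KO replicate 3, and it was 2 without WT replicate 3 and 3 without SRC1 KO replicate 2. All 10 ependymal and tanycyte markers had a log2 fold change below 0, with sums of 76.6 to 95.1 CPM in SRC1 KO, against 197.8 to 232.1 CPM in WT. Of the 10, edgeR called 6 lower (Gpr50, Frzb, Rax, Vim, Crym and Col23a1), and 2 without SRC1 KO replicate 1. Lum, a meningeal proteoglycan, fell by 1.5 and Pitx1, a pituitary factor, by 3.70 on the log2 scale, each the sole call of its list of 8. Of the 8 pituitary markers 6 were tested, and Pitx1 was too low to be tested under the stricter expression filter. The 8 summed to 1.86 to 12.1 CPM in SRC1 KO and 10.5 to 22.4 CPM in WT. With 1 library left out, Lum passed without WT replicate 3 and in none of the other 5 fits, and it did not pass with library totals alone. Of 8 astrocyte, 10 neuron, 10 endothelial and pericyte, and 8 choroid plexus markers edgeR called 0, with medians of -0.090, 0.11, 0.12 and -0.69. With 1 library left out these ran from -0.10 to -0.07, 0.06 to 0.15, 0.01 to 0.26 and -0.78 to -0.53, and edgeR called Gjb6 without WT replicate 1 and the choroid plexus marker Kcnj13 without WT replicate 3. The lowest p in them belonged to Gjb6 (-0.51 ± 0.12) and Aldh1l1 (0.31 ± 0.087), Snap25 (0.28 ± 0.081) and Nefl (0.25 ± 0.075), Rgs5 (0.31 ± 0.082) and Slco1a4 (0.26 ± 0.084), and Folr1 (-1.63 ± 0.32) and Kl (-0.65 ± 0.14). At an unadjusted p under 0.05 these 4 lists held 3, 2, 2 and 0 higher genes and 1, 0, 0 and 4 lower genes, beside 5.75% and 7.21% of all genes tested. DESeq2 called 2, 2, 1 and 3, and limma-voom 0 in each, or 0, 0, 0 and 2 when weighted. Of all genes with an adjusted p, these 3 called 4.25%, 0.508% and 1.98%. How far the shift in these other cells enters CPM values of microglia genes was not tested.

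**Figure D4:**
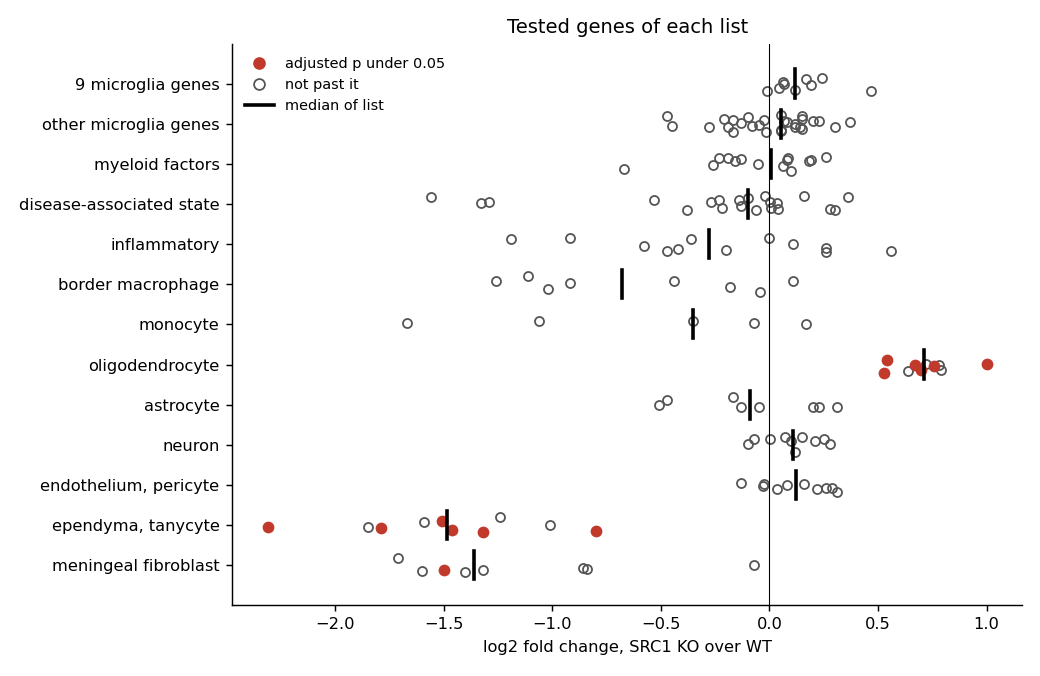
Log2 fold change of SRC1 KO over WT (x axis) for the tested genes of 13 lists, one circle per gene, filled red where the adjusted p in edgeR was under 0.05, with a black bar at the median of each list. The 9 microglia genes lie between -0.01 and 0.47 with no filled circle, while 6 oligodendrocyte markers are filled above 0 and 6 ependymal and tanycyte markers below 0.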

How the data were processed

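The labels' protocols name RNeasy for extraction and Illumina TruSeq for the 6 hypothalamus libraries. The authors deposited 1 table that holds whole-number counts for each gene and its exon length. Alignment used STAR 2.7.10a per the submitters' processing notes, and counting used featureCounts (2.0.0 per the file headers, 2.0.3 per the submitters' processing notes) over exons of the RefSeq annotation of GRCm39. The command set no strand or multi-mapping option, so reads of a gene and of one on the other strand that shares its exons are not separated.

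Columns were matched to samples by library code, with 0 columns unused and 0 rows without a gene name. No 2 libraries of a group agreed within sampling noise (chi-square per degree of freedom 8.87 to 18.9), so none was counted as a repeat deposit, and n counts libraries. Between WT libraries the value was 16.1 to 18.9. It was lower for WT replicate 2 with SRC1 KO replicate 2 (15) and WT replicate 3 with SRC1 KO replicate 3 (15.7). All other pairs between the groups lay at 19.6 to 37. SRC1 KO was compared with WT in edgeR 4.0.16 (R 4.3.3) with TMM scaling, the default filter by group (minimum count 10), robust quasi-likelihood F-tests and Benjamini-Hochberg adjustment over all genes tested. The SE was taken from the log2 fold change and its F statistic. Exact permutation of 3 against 3 libraries cannot pass the threshold and was not used. Alternatives were DESeq2 1.42.0, limma-voom (limma 3.58.1), other scaling and filters, libraries left out and a replicate block. The tests were checked on simulated counts, in which the share of false calls lay above the nominal level for each tool and was highest for DESeq2.

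The 9 genes and all lists were chosen with earlier results of these data known. The text names all 9 genes and their 13 ligands and partners, up to 6 called genes of each other list or, where none was called, the 2 with the lowest p, and the 6 genes nearest in profile (log2 CPM, prior count 2). Some genes that these rules name are not reported here.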

Additional observations from a re-analysis of the deposited data

How the results depend on the processing

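Of the 9 microglia genes, edgeR called 0, and so did each alternative other than DESeq2 and edgeR with no filter, which called 1 each, P2ry12. Their median log2 fold change stayed above 0 in all 15 alternatives, from 0.060 without SRC1 KO replicate 3 to 0.176 without SRC1 KO replicate 2. The count over all genes, 169, was 160 with RLE factors, 66 with library totals alone, 966 with no filter, 84 with at least 1 CPM in at least 3 libraries, 810 with DESeq2, 103 with limma-voom and 401 with sample quality weights, 29 without both first replicates, and 36 to 260 with 1 library left out (36 without SRC1 KO replicate 1, 69 without WT replicate 1, 260 without SRC1 KO replicate 2). The cause was not tested. With the replicate block it was 155, with 0 of the 9. Same-numbered libraries did not pair throughout (correlations of deviations -0.056, 0.512 and 0.229 for replicates 1, 2 and 3). The value for replicate 2 was the highest of any SRC1 KO and WT pair. Whether same-numbered libraries were handled together was not tested.

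Signs turned, all without a call, for genes near 0. Aif1 was 0.012 with sample quality weights, and Entpd1 -0.009 with library totals alone. Without both first replicates Tmem119 was -0.012, Il34 0.024, Tgfbr1 0.044, Syk -0.004 and Entpd1 -0.02. With 1 library left out, Tmem119 was -0.029 to 0.103, Csf1r -0.006 to 0.131, Aif1 -0.09 to 0.071, Il34 -0.082 to 0.007, Tgfb1 -0.075 to 0.046, Tgfbr1 -0.087 to 0.03, Syk -0.057 to 0.176 and Entpd1 -0.031 to 0.055. At 3 libraries a group, the intervals of the 9 genes still allow a higher level of 1.19-fold for Csf1r and of 1.67-fold for P2ry12. For each of the 9 but P2ry12 and Cx3cr1 they also allow a lower level, down to 0.915-fold for Csf1r and 0.769-fold for Aif1.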
